A study of Mus musculus with 27 samples.

Results

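The comparison described here set hemogenic endothelium 1 (HE1) cells against the day 1 blast culture (d1 BC), both without doxycycline (DOX), in mouse embryonic stem cells (ESCs) differentiating towards blood. Its members were chosen by label: the 2 untreated HE1 arrays and the 2 untreated d1 BC arrays, 4 of the 27 arrays of the series. All groups came from the dnFOS ESC line, an A2lox line with a Flag-tagged dominant-negative FOS peptide placed at the Hprt locus under DOX control and grown from a picked clone, so the untreated cells also carried the uninduced cassette. Embryoid bodies were grown for 3.75 days, FLK1+ cells were enriched on magnetic beads, and these were plated in blast culture with VEGF and IL-6. The d1 BC samples were complete cultures harvested after 24 h, a mixture in which cells of the smooth muscle (SM) and endothelial lineages were not separated. The HE1 samples were sorted by flow cytometry, per the study's methods on day 2 of blast culture, as KIT+TIE2+CD41- cells. The same step was also measured on 4 further arrays of cells given 1 µg/ml DOX for 1 day (d1 BC) or 2 days (HE1), and 3 arrays of untreated SM cells sorted on the same day served as a second reference. Culture time, sorting and array slide changed together between d1 BC and HE1 and cannot be told apart here, nor can a larger share of a cell type and more RNA per cell.

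FLK1+ hemangioblast cells give rise to endothelial, smooth muscle and blood cells. Hemogenic endothelium is a transient endothelial population that expresses KIT and TIE2 and buds off blood progenitors, a change in identity in which endothelial and then hematopoietic genes follow each other. Endothelial identity is kept by ETS and SOXF transcription factors and by VEGF and Notch signalling, while the contractile genes of smooth muscle and heart are driven by serum response factor (SRF) and its partners through CArG boxes. The study asked how AP-1 factors steer cells between the smooth muscle and the hemogenic fate, and the untreated step from d1 BC to HE1 is the background for that question.

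Levels are given as log2 of the probe signal minus the 75th percentile of that array, so that 0 is the 75th percentile and differences are log2 fold changes. That percentile was 531 and 726 signal units on the d1 BC arrays (replicates 1 and 2) and, in HE1, 140 and 145. The share of probes well above background ranged from 53.2% to 70.3% over these 4 arrays. Replicate arrays correlated across 23549 genes with r = 0.97 in d1 BC and 0.947 in HE1. The HE1 arrays lay on slides 1 and 3 and the d1 BC arrays on slides 2 and 4, so that no slide held both. Nothing in the labels says whether the 2 samples of a group came from separate cultures, so p-values measure the spread between samples, which may be technical. Adjusted p-values are those of limma with Benjamini-Hochberg adjustment over all genes tested, SE is the standard error of a log2 difference, and a called gene had an adjusted p below 0.05 together with a difference of 2-fold or more.

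The genes of the sorting markers were first compared with the gate. Kit, the receptor for stem cell factor, had log2 levels of -2.19 and -2.83 in d1 BC and of 3.29 and 3.65 in HE1. It was 63.3-fold higher in HE1 (log2 difference 5.98, SE 0.72, adjusted p = 0.000251). Tek, which encodes TIE2, read -0.97 and 1.32 in d1 BC and 2.04 and 2.56 in HE1. Its groups did not overlap, as for 59.4% of the genes tested (30.5% with both HE1 arrays above and 28.9% below), and its difference of 2.13 (SE 1.22) did not pass the test (adjusted p = 0.354). Itga2b encodes CD41, the marker on which HE1 cells were selected as negative. It read -2.51 and -0.56 in d1 BC and 1.16 and 0.69 in HE1 (difference 2.46, SE 1.09, adjusted p = 0.232), against a mean of 3.06 in HE2 cells, which were sorted as CD41+. Kdr, which encodes FLK1, differed by 1.61 (SE 0.80, adjusted p = 0.286). Hprt, at whose locus the silent cassette sits, read 0.49 and 1.16 in d1 BC and 0.34 and 0.45 in HE1, below each of the 4 DOX arrays, which lay between 2.87 and 4.60.

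In all, 547 genes were called higher and 407 lower in HE1, 4.05% of the 23549 genes tested (2.32% higher and 1.73% lower). A gene symbol was known for 440 of the rises and 344 of the falls. The median difference was 3.20 among the rises and -2.77 among the falls, against 0.08 over all genes tested, and 164 rises but 64 falls exceeded 16-fold. Of the rises, 122 were well above background on no d1 BC array and 75 on 1, and of the falls 86 were above background on no HE1 array. The counts depended on every one of the 4 arrays: they were 99 and 76 without d1 BC replicate 2, 171 and 116 without replicate 1, 259 and 211 without HE1 replicate 1 and 168 and 95 without HE1 replicate 2. The split of calls, 57.3% higher, was 31.3% when arrays were centred on their median, which lowered the difference of all genes to a median of -0.64, and 44.0% with slide as a fixed block. HE1 replicate 2 and d1 BC replicate 1 were scanned on the same day, and between them the median difference was 3.03 over the 547 rises and -3.02 over the 407 falls, a description only, since the genes were called on these arrays. Of 104 called genes followed below, 23 remained called without each array in turn. These were Arhgap36, Calcrl, Cd93, Csf2rb, Efemp1, Emcn, Eng, Eomes, Gimap6, Grik3, Kit, Mfng, Msx2, Myl7, Notch4, Rgs5, Rsad2, Stab1, Tead3, Tyrobp, Vrtn, Vstm2b and Vwf.

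The 10 largest rises with a symbol and without overlap between groups were led by genes known from endothelium. Gpr182, a receptor of endothelial cells, read -5.04 and -4.89 in d1 BC and 2.84 and 3.12 in HE1, a difference of 7.94 (SE 1.53, adjusted p = 0.00582). Robo4, the roundabout receptor of blood vessels, read -2.0 and -3.0 in d1 BC and 4.62 and 4.45 in HE1, a 132-fold difference (SE 1.41 on the log2 scale, adjusted p = 0.00772). The scavenger receptor gene Stab1 read -3.54 on both d1 BC arrays and 3.74 and 2.78 in HE1. The HE1 arrays lay far above the d1 BC arrays for each of these genes. Cd93, a C-type lectin receptor, rose from -0.55 and -0.87 to 5.93 and 6.08 (difference 6.72, SE 1.15, adjusted p = 0.00266). Calcrl, which forms the adrenomedullin receptor together with Ramp2, was well above background on no d1 BC array and was at least 30.5-fold higher in HE1 (adjusted p = 0.00255). Such a bound sets the bright group against the lowest signal that was well above background, or the dim probe's own signal if higher. Mrc1, the mannose receptor of macrophages and sinusoidal endothelium, was at least 67.4-fold higher (adjusted p = 0.0057), and the kelch family gene Klhl4 at least 27.9-fold (adjusted p = 0.0172). Adgrf5, an adhesion G protein-coupled receptor, and Gimap6, a GTPase of the immunity-associated family, differed by 6.99 (SE 1.22) and 7.30 (SE 1.16), each above background on 1 d1 BC array. Rsad2, the antiviral protein viperin, was the one interferon-induced gene among the 10.

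The 10 largest falls included muscle, endocytic and matrix genes. Myl7, the atrial myosin light chain, read 1.99 and 1.76 in d1 BC and -5.91 and -4.94 in HE1, where neither array was well above background. It was at least 56.1-fold lower in HE1, with an adjusted p of 5.39e-06, which no gene went below. Vrtn fell at least 41-fold (adjusted p = 0.00063), Efemp1, a fibulin of the extracellular matrix, at least 30.4-fold (adjusted p = 0.000641) and the imprinted gene Phlda2 at least 26.2-fold (adjusted p = 0.00298). Arhgap36, a GTPase-activating protein gene, fell at least 23.0-fold, Vstm2b at least 15.8-fold and Grik3, a glutamate receptor subunit, at least 12.5-fold. In all of these the HE1 arrays were not well above background. Lrp2, the endocytic receptor megalin, read 4.58 and 4.74 in d1 BC and 0.88 and -1.94 in HE1 (difference -5.19, SE 1.17, adjusted p = 0.0162). Plac8 read 3.70 and 4.33 against 0.58 and -3.49 (adjusted p = 0.00404), and the carbonic anhydrase gene Car12 read 1.05 and 1.02 against -5.59 and -3.24 (adjusted p = 0.0057). The HE1 replicates stood well apart for Lrp2 and Plac8, with replicate 1 the higher, and for Car12, with replicate 2 the higher.

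**Figure D1:**
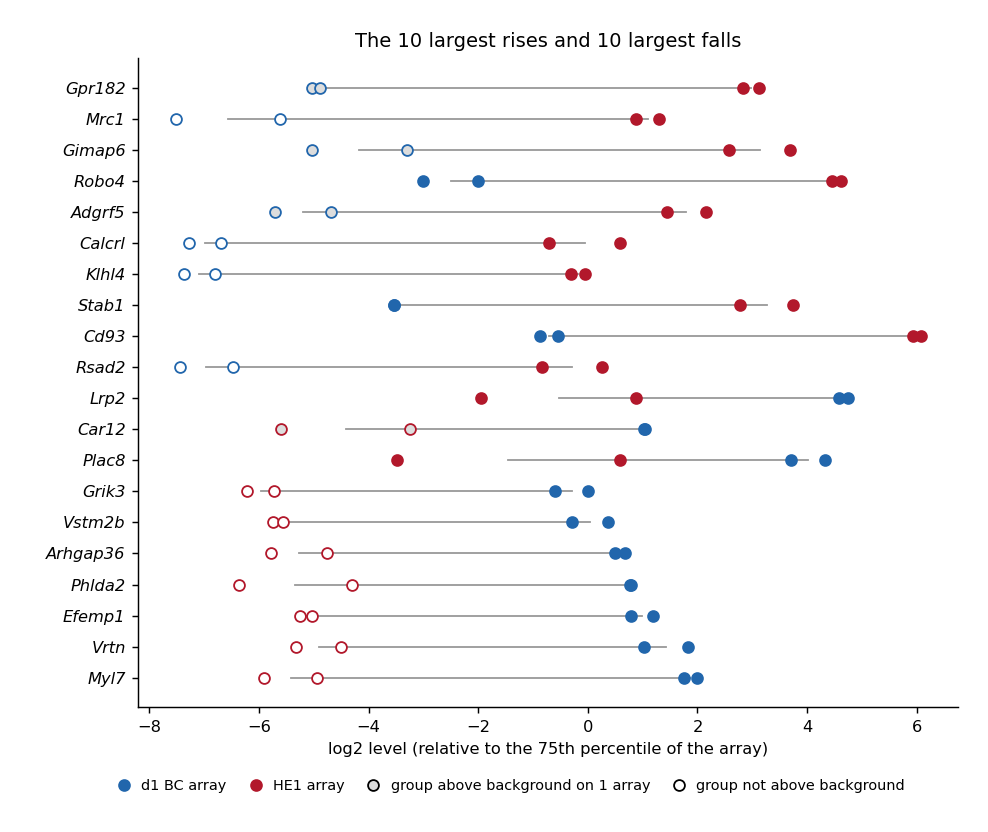
Log2 level (relative to the 75th percentile of the array) of the 10 largest rises and 10 largest falls on each untreated d1 BC array (blue) and HE1 array (red), with a line between the group means. Grey fill marks a group well above background on 1 array and open points a group above it on none; for Myl7 the d1 BC arrays read 1.99 and 1.76 and the HE1 arrays -5.91 and -4.94.

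All 32 tested genes of the endothelial identity list had a positive difference. Of these, 19 were called higher and 0 lower, where 2.32% of all genes were called higher and 1.73% lower. For 31, both HE1 arrays lay above both d1 BC arrays, as for 30.5% of all genes. The median difference was 5.06 (0.08 over all genes). Genes well above background in HE1 alone were also tested. Where both groups had to be well above background, 14 of 24 were called higher. The shares of calls over all genes apply to the list counts below too. Tie1, the partner of TIE2, read -2.36 and -1.15 in d1 BC and 3.63 and 3.51 in HE1 (difference 5.33, SE 1.03, adjusted p = 0.00572). Nos3, the endothelial nitric oxide synthase, read -0.58 and -0.63 against 5.19 and 5.49 (difference 5.95, SE 1.30, adjusted p = 0.0134). The adhesion molecule Icam2 read 0.87 and 0.81 against 6.79 and 6.83 (difference 5.97, SE 1.51, adjusted p = 0.0304). In each the groups lay far apart, with the d1 BC replicates of Tie1 the least alike.

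Receptor partners and junction genes were among the calls. Ramp2 was 66.7-fold higher (adjusted p = 0.033), the gap junction genes Gja4 and Gja5 34.3-fold and by a log2 difference of 5.61 (adjusted p = 0.0225 and 0.00406), and the tight junction gene Cldn5 differed by 6.07 (SE 1.04, adjusted p = 0.00275). The sialomucin Emcn was at least 37.3-fold higher (adjusted p = 0.000641) and Lyve1, the hyaluronan receptor of lymphatic and embryonic endothelium, at least 12.5-fold (adjusted p = 0.00397). Vwf, von Willebrand factor, rose by 5.05 (SE 0.82), Eng, the TGF-beta co-receptor endoglin, by 4.57 (SE 0.68), Cd34 by 5.36 (SE 1.13), Plvap by 5.36 (SE 1.39), Mmrn2 by 4.90 (SE 1.07) and the sphingosine phosphate receptor S1pr1 by 3.85 (SE 0.81). The classical markers Cdh5 (VE-cadherin) and Pecam1 were not called. Cdh5 read 0.47 and 0.19 in d1 BC and 4.92 and 6.05 in HE1 (difference 5.15, SE 1.52, adjusted p = 0.0639), and Pecam1 differed by 2.38 (SE 0.87, adjusted p = 0.142). These 2 genes were chosen after their values were seen.

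These calls depended on other arrays of the fit. Among the SM arrays, the median level of the endothelial list was -1.81 and -1.16 on replicates 1 and 3 and 1.68 on replicate 2, which lay on slide 3 with an HE1 array. The list had medians of -0.76 and -0.86 on the d1 BC arrays and of 3.64 and 3.66 on the HE1 arrays. With slide as a fixed block, 2 of the 32 genes were called, at a median difference of 2.21. When the SM arrays of slide 3, with and without DOX, were left out, 25 were called, and with both changes 20, at a median of 4.46. Leaving out 1 of the 4 compared arrays gave between 7 and 10 calls. The median ran from 3.92 to 5.28 over the background corrections and scalings, and no endothelial gene was called lower under any of these settings.

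**Figure D2:**
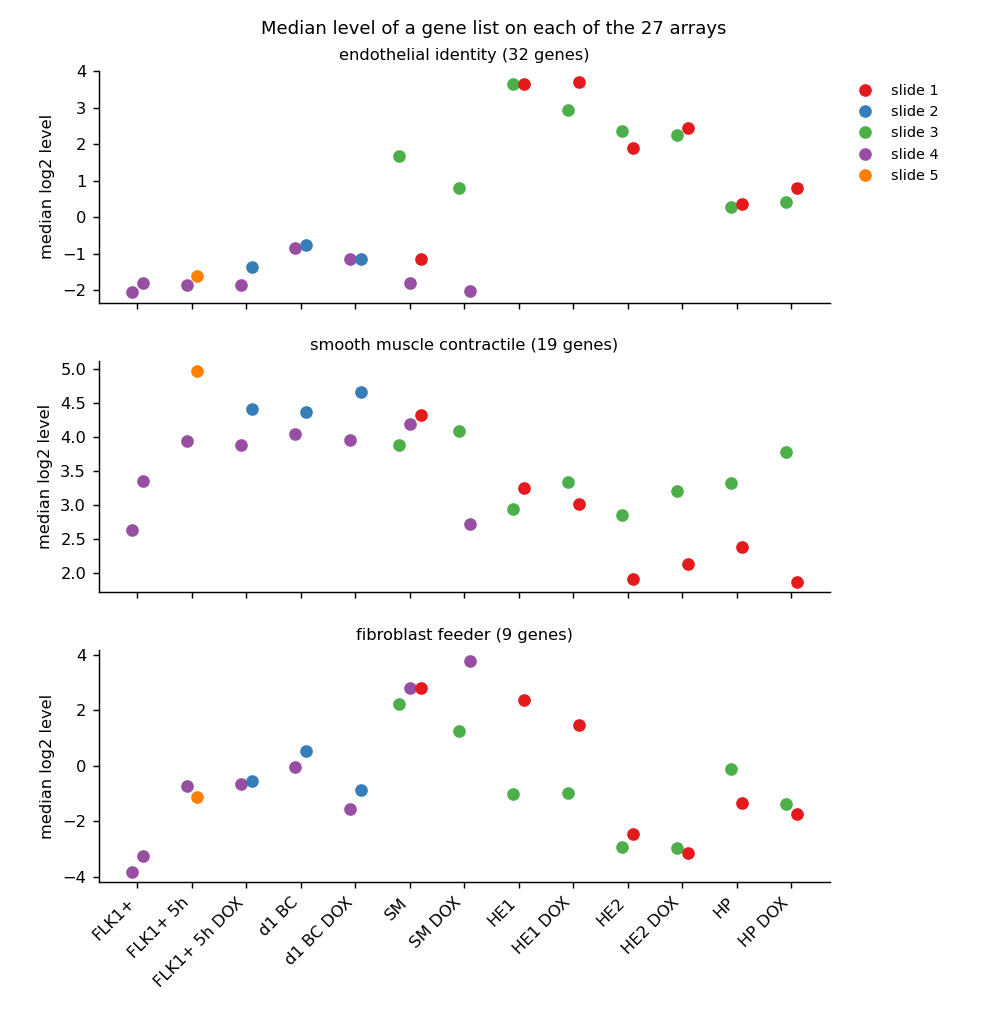
Median log2 level of the endothelial identity, smooth muscle contractile and fibroblast feeder lists on each of the 27 arrays, coloured by slide. The endothelial median lies at 3.64 and 3.66 on the HE1 arrays and at -0.76 and -0.86 on the d1 BC arrays, while the 3 untreated SM arrays spread from -1.81 to 1.68.

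Of 15 endothelial transcription factors tested, 5 were called higher and 0 lower, with a median difference of 2.81. Sox18, a SOXF factor of developing vessels, read -2.91 and -3.12 in d1 BC and 2.74 and 3.73 in HE1 (difference 6.25, SE 1.52, adjusted p = 0.0245). The ETS factor Erg read -4.12 and -3.61 against 1.79 and 0.60 (difference 5.06, SE 1.16, adjusted p = 0.0176). Both were low on each d1 BC array and did not overlap with HE1. Further ETS factors were called, Elk3 at 3.33 (SE 0.83, adjusted p = 0.0288) and Ets2 at 2.85 (SE 0.68, adjusted p = 0.0231), together with Nr2f2, the venous factor COUP-TFII, at 2.53 (SE 0.57, adjusted p = 0.0155). With slide as a fixed block, the difference of Erg was 2.22 and its adjusted p 0.468.

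Promoter sequences were set beside these genes, since ETS factors bind a core of GGAA. The longer word AGGAAG, searched on both strands, was found in 13 of 18 promoters (72.2%) of 16 genes of the endothelial list and in 35.4% of all 32851 promoters, from 250 bases before to 50 after a gene start (RefSeq, GRCm38.p6). It occurred in 41.9% of 427 promoters of genes called higher and in 28.7% of 359 promoters of genes called lower. Among 14320 promoters of genes tested the share was 33.1%. The promoters of Tie1 (chr4:118489800-118490099, minus strand) and of Notch4 (chr17:34564045-34564344, plus strand), genes that rose 40.2-fold and 34.7-fold, show the word on either strand, in capitals.
Tie1: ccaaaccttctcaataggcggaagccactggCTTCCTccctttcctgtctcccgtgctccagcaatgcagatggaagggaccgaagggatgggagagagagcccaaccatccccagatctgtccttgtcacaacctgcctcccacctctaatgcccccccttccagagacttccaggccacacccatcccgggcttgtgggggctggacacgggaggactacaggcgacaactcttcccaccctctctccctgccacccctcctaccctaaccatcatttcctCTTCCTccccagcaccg
Notch4: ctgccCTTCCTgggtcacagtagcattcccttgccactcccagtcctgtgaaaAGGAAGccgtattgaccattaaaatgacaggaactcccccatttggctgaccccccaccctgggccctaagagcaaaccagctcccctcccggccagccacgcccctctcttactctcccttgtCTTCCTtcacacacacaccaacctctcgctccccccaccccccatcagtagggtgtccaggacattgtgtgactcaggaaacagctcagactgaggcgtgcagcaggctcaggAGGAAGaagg
Tie1 holds it at -219 and at 34 relative to the start, both on the opposite strand, and Notch4 holds 4 copies, the first at -245 and the last at 41. A match of letters is a description of the sequence and not evidence of binding.

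In the Notch pathway, which sets arterial and hemogenic fate, 4 of 15 tested genes were called higher and 0 lower (median difference 1.73, and 0.76 with the normexp background correction). The receptor Notch4 read -1.87 and -1.91 in d1 BC and 3.29 and 3.16 in HE1 (difference 5.12, SE 0.72, adjusted p = 0.000641). Mfng, a glycosyltransferase that modifies Notch receptors, read -2.83 and -2.63 against 2.78 and 1.47 (difference 4.86, SE 0.67, adjusted p = 0.000628). Both were among the genes called without each array in turn. The ligands Dll1 and Jag2 rose by 3.42 (SE 0.91, adjusted p = 0.041) and 2.14 (SE 0.44, adjusted p = 0.00971). Of the 11 genes not called, 5 had a negative difference.

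Of 8 angiopoietin and ephrin genes, Tie1, Efna1 and Angpt2 were called higher and 0 lower. The ephrin ligand Efna1 read -0.13 and -1.58 in d1 BC and 2.31 and 2.36 in HE1 (difference 3.19, SE 0.72, adjusted p = 0.0163). Angpt2, an antagonist ligand of TIE2 made by endothelium, read -2.97 and -3.61 against -0.40 and -1.75 (difference 2.21, SE 0.51, adjusted p = 0.0184). Angpt1, the agonist ligand made by perivascular cells, read -1.20 and 0.29 against -0.82 and -3.48 and was not called (adjusted p = 0.24). None of the 10 VEGF ligands and receptors was called by limma, with 3 at an unadjusted p under 0.05, and the receptor Flt1 differed by 2.89 (SE 0.98, adjusted p = 0.109). Its adjusted p was 0.00166 without the SM arrays of slide 3.

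In the TGF-beta and BMP pathway, which acts on both endothelium and smooth muscle, the calls went in both directions. Of its receptors, 3 were called higher. Acvrl1, the endothelial receptor ALK1, read -1.84 and -3.15 in d1 BC and 1.82 and 2.31 in HE1 (difference 4.57, SE 0.89, adjusted p = 0.00626), and Tgfbr2 and Tgfbr3 rose by 2.03 (SE 0.47, adjusted p = 0.0183) and 2.34 (SE 0.50, adjusted p = 0.0113). Of its ligands, 2 were called lower. Bmp4 read 6.80 and 6.91 against 5.21 and 3.18 (difference -2.66, SE 0.55, adjusted p = 0.00905) and Tgfb2 read 4.66 and 4.85 against 2.92 and 1.92 (difference -2.34, SE 0.59, adjusted p = 0.0301). The other 17 of 22 tested genes were not called, and the list had a median of -0.34. Among these, the receptors Bmpr2, Tgfbr1 and Bmpr1a and the ligand Bmp6, chosen after their values were seen, had differences of 1.66, -0.09, -0.84 and 2.00, and the ligand Inhba one of -3.19.

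Of 19 smooth muscle contractile genes tested, 5 were called lower and 0 higher, where 1.73% of all genes were called lower. A negative difference was found for 17, and the median was -1.80. Where both groups had to be well above background, 4 of 17 genes tested were called lower. Cnn1, the actin-binding calponin of smooth muscle, read 6.49 and 5.99 in d1 BC and 2.24 and 0.55 in HE1 (difference -4.85, SE 1.17, adjusted p = 0.0238). Tpm1, a tropomyosin, read 7.88 and 7.11 against 4.42 and 3.57 (difference -3.50, SE 0.62, adjusted p = 0.00353). The smooth muscle myosin Myh11 read -2.61 and -1.21 in d1 BC and was well above background on no HE1 array, at least 4.07-fold lower (adjusted p = 0.0297). All 3 were lower on each HE1 array than on each d1 BC array. Tpm2 fell by 3.20 (SE 0.84, adjusted p = 0.0385) and Myocd, the SRF coactivator of smooth muscle, by 2.54 (SE 0.67, adjusted p = 0.0373). The abundant markers Acta2 and Tagln, chosen after their values were seen, were not called: Acta2 read 9.08 and 8.70 against 8.24 and 6.16 (adjusted p = 0.159), and Tagln differed by -1.80 (SE 0.92, adjusted p = 0.295). Of the 5 genes, Tpm1 and Myh11 remained called without HE1 replicate 1, Tpm1 without d1 BC replicate 2, and none without HE1 replicate 2 or d1 BC replicate 1. With slide as a fixed block Tpm1 was the one of the 5 still called, among 4 genes of the list called lower. When the SM arrays of slide 3 were left out as well, 0 genes of the list were called lower and 1 higher, at a median of -1.72.

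Among 19 mesoderm and cardiac genes, 6 were called lower and 1 higher, 8 had a positive difference, and the median was -0.23. The heart factors Nkx2-5, Tbx20 and Gata4 and the cardiac troponin Tnnt2, chosen after their values were seen, differed by 0.06, 0.04, 0.46 and -0.23 and were not called. Of the called genes beside Myl7, Myl4, the atrial essential light chain, read 6.75 and 6.18 in d1 BC and 1.1 and 1.7 in HE1 (difference -5.07, SE 1.09, adjusted p = 0.0118). Actc1, cardiac actin, read 6.62 and 7.23 against 2.97 and 1.76 (difference -4.56, SE 1.23, adjusted p = 0.042). The early mesoderm factor Eomes read 2.53 and 1.79 against -2.01 and -1.53 (difference -3.93, SE 0.59, adjusted p = 0.000955), and the homeobox gene Msx2, a BMP target, 4.79 and 4.42 against 0.87 and 0.02 (difference -4.16, SE 0.57, adjusted p = 0.000628). Levels of all these genes were separate between the groups. The heart and mesoderm factors of the HAND family went opposite ways. Hand1 read 3.76 and 4.12 against 2.03 and -0.96 (difference -3.41, SE 0.83, adjusted p = 0.0255), while Hand2 read -1.36 and -0.58 against 3.06 and 4.03 (difference 4.52, SE 0.79, adjusted p = 0.00299).

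The promoters of Myl7 and Actc1 are shown for their CArG box, the SRF site of muscle genes. A CArG box was found in 1.63% of all promoters and in 1.45% of those of genes tested. It was in 0.937% of those of genes called higher and in 3.62% (13 promoters) of those of genes called lower. In the smooth muscle list, 4 of 17 promoters (23.5%) held it. The Myl7 promoter lies at chr11:5898733-5899032 and that of Actc1 at chr2:114052826-114053125, both on the minus strand, with the box in capitals.
Myl7: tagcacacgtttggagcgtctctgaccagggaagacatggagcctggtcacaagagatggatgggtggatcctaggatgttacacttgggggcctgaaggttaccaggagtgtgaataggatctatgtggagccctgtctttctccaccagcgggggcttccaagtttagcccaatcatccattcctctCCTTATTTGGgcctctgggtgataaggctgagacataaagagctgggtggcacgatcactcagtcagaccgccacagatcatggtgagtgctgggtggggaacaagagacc
Actc1: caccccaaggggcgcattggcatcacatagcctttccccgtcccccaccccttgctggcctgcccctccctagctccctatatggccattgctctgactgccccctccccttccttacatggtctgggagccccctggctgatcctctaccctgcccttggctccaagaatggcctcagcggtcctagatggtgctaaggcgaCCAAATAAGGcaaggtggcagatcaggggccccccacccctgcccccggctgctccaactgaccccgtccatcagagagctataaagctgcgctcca
The box spans -61 to -52 in Myl7 and -47 to -38 in Actc1. The word GGAATG, bound by TEAD factors, was found in 7 of the 17 smooth muscle promoters (41.2%). It was in 17.0% of the promoters of genes called lower and in 11.9% of those called higher. Its share was 14.7% in all promoters and 12.8% in those of genes tested. TGANTCA, the AP-1 word, was in 5.29% and 6.79% of promoters of genes called lower and higher. It was in 5.43% of those of genes tested and in 7.81% of all.

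Of 19 Wnt pathway genes, 3 were called lower and 0 higher (median -1.05). A count by the name stem Wnt, made after the values had been seen, gave 16 genes tested, with 1 called higher and 2 lower (median -0.62). The ligand Wnt3 read 1.95 and 1.19 in d1 BC and -3.40 and -3.80 in HE1 (difference -5.17, SE 0.99, adjusted p = 0.00569). Dkk1, a secreted Wnt inhibitor, and the receptor Fzd7 fell by 3.67 (SE 0.94, adjusted p = 0.0326) and 2.80 (SE 0.49, adjusted p = 0.00299). Of 12 pluripotency and epiblast genes, the epiblast gene Fgf5 fell by 4.95 (SE 1.13, adjusted p = 0.0174) and Sox2 was at least 6.26-fold lower (adjusted p = 0.021), while Klf4, which endothelium also uses, rose by 1.94 (SE 0.50, adjusted p = 0.033). Among 9 visceral endoderm and epithelial genes, the keratin Krt18 was called lower, at 9.44 and 8.85 against 6.98 and 4.88 (difference -3.22, SE 0.72, adjusted p = 0.0156). Its partner Krt8 read 7.44 and 7.56 against 3.66 and -0.15 and was not called (adjusted p = 0.187).

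**Figure D3:**
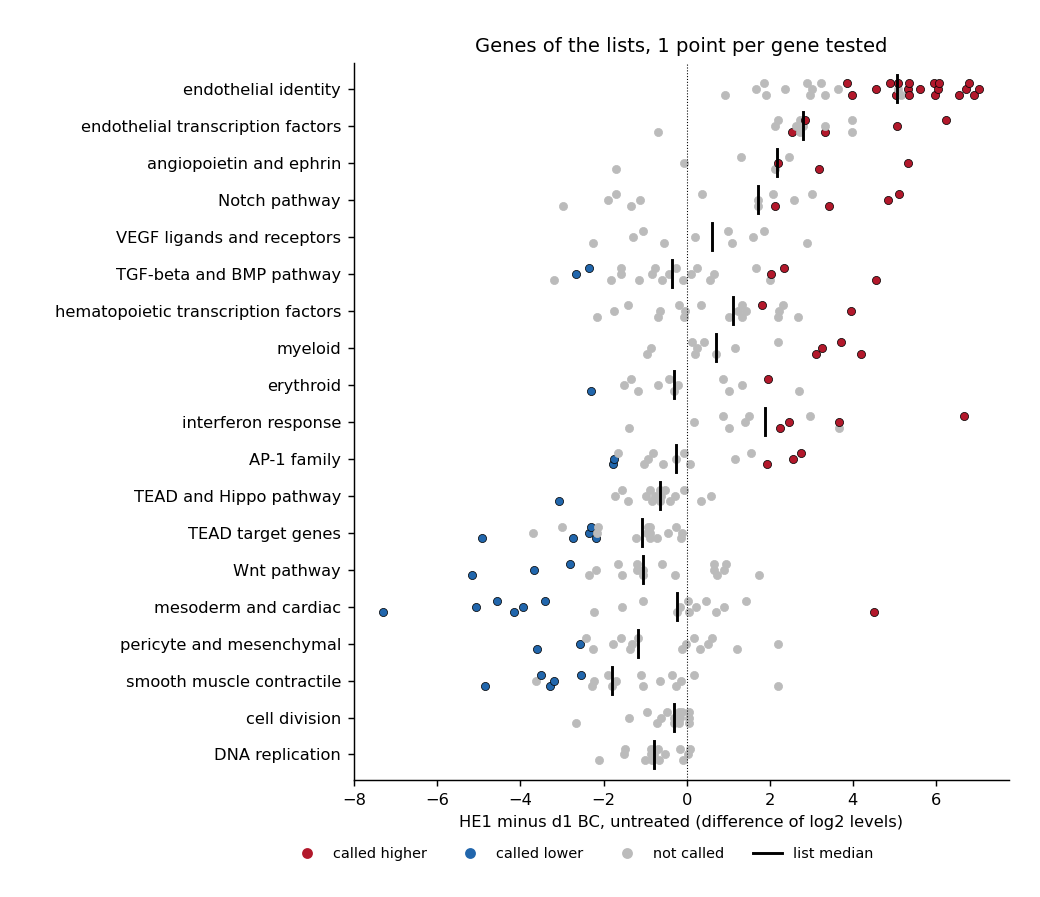
Difference of log2 levels, untreated HE1 minus d1 BC, for each tested gene of 19 lists, with genes called higher in red, called lower in blue and not called in grey, and the list median as a bar. The endothelial identity list has its median at 5.06 and all 32 genes right of 0, and the smooth muscle list its median at -1.80 with 17 of 19 genes left of 0.

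TEAD factors bind the Hippo pathway coactivators YAP and TAZ, and with AP-1 they are the factors the study followed. All 20 tested TEAD target genes had a negative difference, 5 were called lower, and the median was -1.08, or -1.80 with arrays centred on their median. F3, tissue factor, read 4.93 and 5.09 in d1 BC and 1.42 and -1.25 in HE1 (difference -4.93, SE 1.04, adjusted p = 0.0106). The receptor tyrosine kinase gene Axl fell by 2.74 (SE 0.71, adjusted p = 0.0347), Gadd45b by 2.30 (SE 0.51, adjusted p = 0.0151) and the LIM protein gene Ajuba by 2.18 (SE 0.55, adjusted p = 0.0297), and Tgfb2 is the fifth. Of 17 TEAD and Hippo pathway genes, 1 was called. Tead3 read -0.37 and -0.74 against -3.57 and -3.66 (difference -3.06, SE 0.52, adjusted p = 0.00254). Tead4 read 1.30 and 0.46 against -0.99 and -0.70 and was not called (difference -1.73, SE 0.60, adjusted p = 0.121).

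The AP-1 family, dimers of JUN, FOS and related proteins, had calls both ways among 15 tested genes. Jun read 5.08 and 4.30 in d1 BC and 6.82 and 6.43 in HE1 (difference 1.93, SE 0.54, adjusted p = 0.0487), and Fosb 1.07 and -0.22 against 2.84 and 3.52 (difference 2.76, SE 0.69, adjusted p = 0.0292). Batf3 rose by 2.56 (SE 0.60, adjusted p = 0.0196), while Jdp2 fell by 1.74 (SE 0.38, adjusted p = 0.0133) and Fosl2 by 1.77 (SE 0.42, adjusted p = 0.0212). Another probe of Fosl2 differed by 0.77. Of 21 immediate early and stress genes, 3 were called higher and 1 lower: Jun, Fosb and Egr1, the last by 1.78 (SE 0.45, adjusted p = 0.0305), and in the other direction Gadd45b. Among vascular genes that the study named, the myosin Myo1e read 1.59 and 2.01 against -0.31 and -0.82 and fell by 2.36 (SE 0.43, adjusted p = 0.00406). Wt1 and Nrp1 had differences of -1.56 and -1.30, with adjusted p-values of 0.238 and 0.69. Myo1e and Wt1 were picked in the study from arrays of this series, so their values are no independent evidence. Nrp1 was shown there as an example of FOS and JUN binding.

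Blood genes were counted by lineage, against 2.32% of all genes called higher and 1.73% lower. Of 20 hematopoietic transcription factors, 2 were called higher and 0 lower. Lyl1, a relative of TAL1 shared by endothelium and blood, read 0.75 and 1.6 in d1 BC and 5.19 and 5.07 in HE1 (difference 3.95, SE 1.08, adjusted p = 0.046). Meis1, a homeobox factor of stem and progenitor cells, rose by 1.82 (SE 0.40, adjusted p = 0.0129). Runx1, which is required for the endothelial to hematopoietic transition, read 1.81 and 1.22 against 0.07 and -0.52 (difference -1.74, SE 0.65, adjusted p = 0.154), and a second probe differed by -3.06. Its levels were lower on both HE1 arrays than on both d1 BC arrays, but the difference did not pass the test. Gata1, the erythroid and megakaryocyte factor, differed by -2.15 (SE 0.82, adjusted p = 0.161), and Cbfa2t3 by 2.69 (SE 1.09, adjusted p = 0.187).

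Lineage markers of blood cells were counted next. The HE1 cells were sorted as KIT+TIE2+CD41-, and the share of other blood cells left after the sort was not tested. Of 13 myeloid genes 4 were called higher and 0 lower. The adaptor Tyrobp was at least 11.9-fold higher (adjusted p = 0.000874), the factor Irf8 at least 6.61-fold (adjusted p = 0.0105), Laptm5 rose by 3.71 (SE 1.03, adjusted p = 0.0494) and myeloperoxidase, Mpo, by 3.12 (SE 0.72, adjusted p = 0.019). Of 12 megakaryocyte and platelet genes, Vwf, Clec1b at 2.94 (SE 0.76, adjusted p = 0.0348) and Plek at 2.63 (SE 0.63, adjusted p = 0.0226) were called, and Vwf also stands in the endothelial list. Csf2rb, the common chain of cytokine receptors, rose by 3.62 (SE 0.57, adjusted p = 0.00139). Of 13 erythroid genes, Epor, the erythropoietin receptor, rose by 1.95 (SE 0.44, adjusted p = 0.0156) and the carbonic anhydrase Car2 fell by 2.30 (SE 0.55, adjusted p = 0.022). The embryonic globin Hbb-y read -2.24 and 0.64 against 2.02 and 1.79 and was not called (adjusted p = 0.215). Tyrobp and Mpo had higher means in HE2 (2.83 and 4.61) than in HE1. Against untreated SM, 0 of 13 tested myeloid genes were called in HE1, at a median difference of 0, beside 0.71 against d1 BC.

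Of 12 interferon response genes 4 were called higher and 0 lower, with a median difference of 1.88, or 0.87 with the normexp correction. Rsad2 was at least 25.9-fold higher in HE1 (adjusted p = 0.000226) and Ifit1 at least 3.00-fold (adjusted p = 0.0061), while Usp18 rose by 2.46 (SE 0.64, adjusted p = 0.035). HE1 against untreated SM gave 0 calls among 12 tested genes of the list and a median difference of -0.72. With DOX the median of HE1 minus d1 BC over 11 tested genes was 0.50. The chemokine Cxcl10, which interferon also induces, went the other way, from 3.92 and 2.68 in d1 BC to -2.09 and -1.09 in HE1 (difference -4.89, SE 1.21, adjusted p = 0.0274). Of the Hox genes, Hoxb8 was at least 8.55-fold higher (adjusted p = 0.00573) and the other 18 tested were not called.

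Genes of perivascular cells and fibroblasts separated the HE1 replicates. Of 17 pericyte and mesenchymal genes, 2 were called lower: Rgs5, a pericyte marker, read 0.46 and 0.58 in d1 BC and -2.62 and -3.56 in HE1 (difference -3.61, SE 0.59, adjusted p = 0.00199), and the factor Snai1 fell by 2.56 (SE 0.65, adjusted p = 0.0309). Over the fibroblast feeder list of 9 genes, the median level was 0.54 and -0.06 on the d1 BC arrays, 2.36 on HE1 replicate 1 and -1.03 on HE1 replicate 2. For the collagen Col1a1 the HE1 arrays read 4.34 and -1.72 and the d1 BC arrays 4.49 and 4.35. Col1a2 was called higher, at 1.52 and 2.76 in d1 BC and 5.28 on both HE1 arrays (difference 3.14, SE 0.59, adjusted p = 0.00497), and the untreated SM arrays read between 5.24 and 6.84. The feeder list had 1 call in 9 genes, and the part of such cells in other differences was not tested. The integrin Itga1 rose by 3.52 (SE 0.66, adjusted p = 0.00489).

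The lists of 15 cell division genes, 15 DNA replication genes, 12 sterol synthesis genes and 7 CDK inhibitors held 0 calls by limma, with 1 gene each at an unadjusted p under 0.05. Their median differences were -0.30, -0.79, 0.26 and 0.08, and those of the sterol genes and CDK inhibitors turned negative when arrays were centred on their median. Among the CDK inhibitors, Cdkn2b had a difference of -4.16 (SE 1.18) and was not called (adjusted p = 0.0541). Of 18 glycolysis and hypoxia genes, Pdk1 was called, higher by 1.92 (SE 0.53, adjusted p = 0.0469), and the glucose transporter Slc2a1 read 7.97 and 7.8 against 6.46 and 4.75 (adjusted p = 0.0505).

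The step from d1 BC to HE1 was then read on 4 arrays of DOX-treated cells, which are not among the 4 arrays of the untreated comparison, although they entered the pooled spread of the fit behind its calls and lay on the same 4 slides. There 757 genes were called higher and 443 lower, 4.85% of 24757 tested (3.06% higher and 1.79% lower). Leaving out d1 BC DOX replicate 2 gave 199 and 167, d1 BC DOX replicate 1 gave 401 and 168, HE1 DOX replicate 1 gave 522 and 219, and HE1 DOX replicate 2 gave 359 and 246. Of the untreated rises, 416 were also called with DOX, 76.1% of the untreated and 55.0% of the DOX calls, and of the falls 254, which was 62.4% and 57.3%. All 511 rises tested with DOX kept their sign, as did 397 of 400 falls, and 0 genes were called in opposite directions. Across 22897 genes tested in both, the differences correlated with r = 0.868, where genes are not independent replicates. The difference between the 2 steps was called for 0 of 25409 genes (0%), with 212 at an unadjusted p under 0.05. It was called for 0 genes under all other settings tried. The median SE of this difference was 0.97, and the absence of calls does not show that the 2 steps were equal. Kit differed by 6.38 with DOX and 5.98 without, and Robo4 by 6.65 and 7.04.

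**Figure D4:**
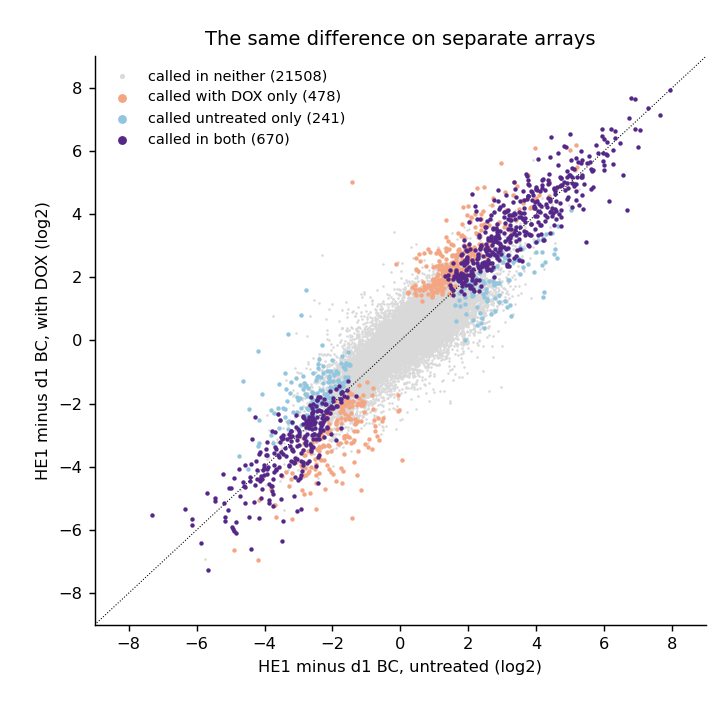
Difference of log2 levels between HE1 and d1 BC without DOX (x axis) and with DOX (y axis), 1 point per gene tested in both, coloured by calls. Of the points, 670 were called in both, 241 only without DOX and 478 only with DOX, and the dotted line marks equal differences.

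The endothelial list had 24 of 33 tested genes called higher with DOX and a median of 5.13, against 5.06 without. The smooth muscle list had 5 called lower and a median of -1.60, against -1.80. Notch4 read -1.52 and -2.15 in d1 BC with DOX and 3.43 and 2.80 in HE1 with DOX, beside -1.87, -1.91, 3.29 and 3.16 without. The pericyte and mesenchymal median was 0.44 with DOX and -1.16 without, on lists of 18 and 17 tested genes. Without DOX, the level of the 17 genes had medians of 0.96 and 1.4 on the d1 BC arrays. In HE1 these were 0.76 on replicate 1 and -1.23 on replicate 2, so the lower level lay mainly on HE1 replicate 2. With DOX the medians of the same genes were 0.8 and 0.82 in d1 BC and 1.06 and 0.74 in HE1. Hand1 read 3.27 and 3.18 in d1 BC with DOX and 2.47 and 1.91 in HE1 with DOX, a difference of -1.03 (adjusted p = 0.62) beside -3.41 without, and Runx1 differed by 0.02 (adjusted p = 0.992) beside -1.74. The lowest adjusted p of any gene for the difference between the steps was 1.

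Untreated SM cells were sorted on the same day of culture as HE1. SM replicates 2 and 3 each shared a slide with an HE1 array, and SM replicate 1 lay on slide 4 with d1 BC replicate 2. Against SM, 96 genes were called higher and 147 lower in HE1, 1.04% of 23404 tested (0.41% higher and 0.628% lower). These counts were 391 and 338 without SM replicate 2, 9 and 123 without HE1 replicate 1, and 1 and 0 without SM replicate 1, SM replicate 3 or HE1 replicate 2. Because this comparison uses the same HE1 arrays, its values are given beside the others and not as a second test. The differences were 5.98 from d1 BC and 4.07 from SM for Kit, 5.12 and 4.03 for Notch4 and 4.57 and 4.04 for Eng. Myl7, not well above background in HE1, was at least 56.1-fold lower than in d1 BC and at least 3.86-fold lower than in SM. Tyrobp was at least 11.9-fold higher than in d1 BC and differed by 0.00 from SM. For Fosb the differences were 2.76 and -0.50, for Egr1 1.78 and -0.45, for Tgfbr3 2.34 and 0.08 and for Col1a2 3.14 and -0.75. For these last 5 genes the difference from SM was under 1 on the log2 scale, with adjusted p-values from 0.821 to 0.998, which does not show that the levels are equal. SM replicate 2, which carried the high endothelial levels, read 5.24 for Icam2 where the other SM arrays read -0.43 and -0.54.

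Levels over the 7 untreated populations are a description, since the genes were picked on HE1 and d1 BC. Of the 547 rises, 340 had their highest mean in HE1, 121 in the hematopoietic progenitors (HP), 66 in HE2, 14 in FLK1+ cells and 6 in SM. Of the 407 falls, 178 had their highest mean in d1 BC, 135 in FLK1+ cells after 5 h of culture, 57 in FLK1+ cells, 23 in SM and 14 in HP. The lowest mean of the falls lay in HE2 for 201, in HE1 for 95 and in HP for 81. It lay in FLK1+ cells for 24, in FLK1+ cells after 5 h for 5 and in SM for 1. Robo4 averaged -1.39 in FLK1+ cells, -2.50 in d1 BC, 4.54 in HE1, 1.67 in HE2 and -0.23 in HP, and Notch4 ran 3.23 in HE1, 0.19 in HE2 and -0.40 in HP. Kit went on from 3.47 in HE1 to 4.02 in HE2 and 4.65 in HP, and Erg from 1.20 to 1.44 and 0.57. Runx1 averaged 0.06 in FLK1+ cells, 1.51 in d1 BC, -0.22 in HE1, 3.94 in HE2 and 4.37 in HP. The groups hold 2 arrays each apart from SM with 3, and the order of neighbours was not tested.

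**Figure D5:**
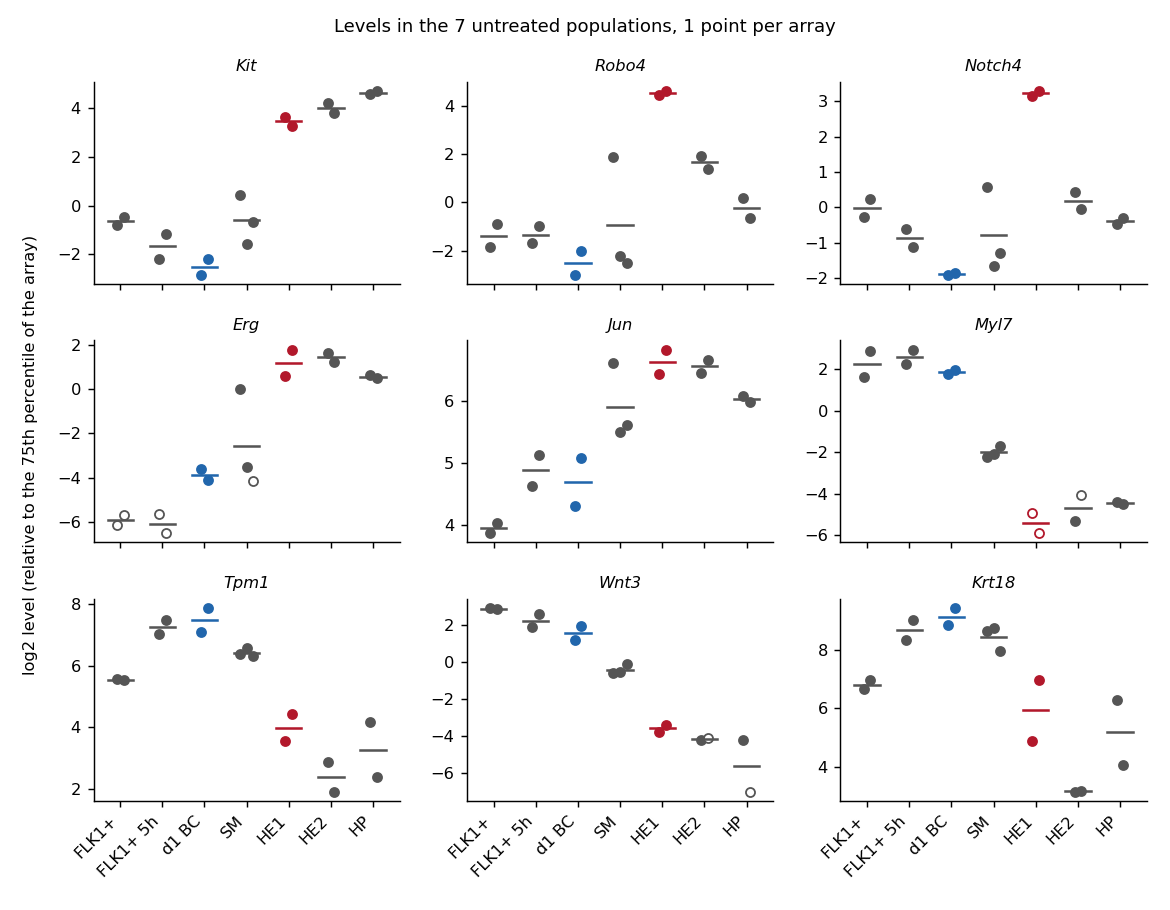
Log2 level of 9 genes on each array of the 7 untreated populations, with group means as bars, d1 BC in blue and HE1 in red, and open points where the probe was not well above background. Robo4 and Notch4 peak in HE1 at means of 4.54 and 3.23, Kit stays high into HP at 4.65, and Myl7 was not well above background on either HE1 array.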

How the data were processed

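RNA from 27 samples was hybridised to one-colour Agilent mouse arrays. Per the file headers, the deposited intensity of each spot was background-subtracted within its array by Feature Extraction 10.7.3.1 (10.7.1.1 in the submitters' processing notes), without scaling between arrays. The log2 values that the authors deposited for the same arrays were normalized between arrays and served as an alternative. Of 62976 spots, 55681 probes were not controls, and 37208 genes or transcripts, 20151 with a symbol, were each read from the probe with the highest mean over all arrays. Each log2 signal was set relative to the 75th percentile of its array. Testing required a probe to be well above background throughout at least 1 of the groups compared. limma 3.58.1 (R 4.3.3) was fitted to 13 group means over all 27 arrays, with empirical Bayes moderation, Benjamini-Hochberg adjustment over all genes tested and calls at an adjusted p under 0.05 and a 2-fold limit. The fit was tested on simulated data. Only 2 arrays a group limit the precision.

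Groups came from the sample labels. Arrays lay on 5 slides scanned on 4 days. The comparison, the 35 gene lists and the tests were chosen with earlier results of these data known. Genes were named where they encode sorting markers or the cassette locus, were among the 10 largest rises or falls with a symbol and without overlap, were called in a list or among its 2 largest differences each way, or were among 6 genes named by the study, and some results that this rule gave are not reported here. Other named genes are marked as chosen after their values were seen. List genes Col6a3, Atf7, Hbb-b1 and Hspa1b were not matched, and Mkl1 was read as Mrtfa. Alternatives changed background correction, scaling, filters, probe choice, blocks, arrays fitted, weights and thresholds, and each compared array was left out in turn. Promoter sequences came from RefSeq (GRCm38.p6) and were searched on both strands for the CArG box and the words given above, and for AGATAA, bound by GATA factors. This last word was found in 11.2% of all promoters and in 7.17% of those of genes tested. It was in 10.3% of those of genes called higher and 6.96% of those called lower.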

Additional observations from a re-analysis of the deposited data

How the results depend on the processing

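No gene called in the untreated comparison was called in the opposite direction under any of 23 alternatives, and of 104 called genes followed, 0 changed sign. Of these 104, 8 kept their call under every alternative that tested them: Kit, Mfng and Msx2, and Arhgap36, Efemp1, Emcn, Myl7 and Rsad2, which were not tested where both groups had to be above background. Slide as a fixed block ended 78 of the 104 calls, or 61 without the SM arrays of slide 3, leaving out 1 array between 60 and 72, an adjusted p under 0.01 58, a fit to the groups compared alone 43, the absence of a filter on dim probes 28 and median centring 25. Only 2 arrays a group, and signal near background in 1 group of many called genes, limit what can be read. The causes were not tested.

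Untreated rises numbered 547, and 251 with arrays centred on their median, 334 with probes above background in both groups, 120 with slide as a fixed block, 1375 with array weights and 191 at an adjusted p under 0.01. Falls numbered 407, and 616 with normexp, 663 with quantile scaling, 682 with the authors' values, 213 without a filter, 259 above background in both groups, 153 with slide fixed, 179 with only the groups compared, 946 with array weights and 129 at 0.01. Of calls with slide fixed, 92 rises and 91 falls were shared with the reported ones. The share of calls that rose, 57.3%, was 31.3% with median centring, 44% with slide fixed, 68.9% with only the groups compared and 80.8% with slide fixed and without the SM arrays of slide 3. Chosen after seeing the data, a fit without those SM arrays gave 893 rises, and with slide fixed as well 261 rises and 62 falls. Without single arrays the counts ran from 99 to 259 and from 76 to 211.

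With DOX the rises, 757, were 407 with median centring, 210 with slide fixed, 325 with slide fixed and without the SM arrays of slide 3, and 335 at 0.01. The falls, 443, were 671 with the authors' values, 257 above background in both groups, 205 with slide fixed, 103 with slide fixed and without those SM arrays, and 184 at 0.01. Without single arrays they ran from 199 to 522 and from 167 to 246, and the difference between the steps from 0 to 0.

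HE1 against SM gave 96 rises, and 321 with normexp, 238 with quantile scaling, 305 with the authors' values, 24 without a filter, 59 above background in both groups, 174 with slide fixed, 207 with scan day fixed, 309 with slide as a random block, 0 with only the groups compared, 801 with array weights, 554 without the SM arrays of slide 3, 616 with slide fixed as well and 1 at 0.01. Its 147 falls were, in the same order, 380, 257, 364, 33, 84, 309, 353, 551, 0, 919, 470, 370 and 0, and 57 with median centring. Without single arrays they ran from 1 to 391 and from 0 to 338.

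Replicate numbers did not pair the HE1 with the d1 BC samples: deviations of same-numbered arrays correlated at -0.00553 untreated and at -0.283 with DOX. Between untreated and DOX arrays of the same number, which shared a slide, they correlated at 0.462 in HE1 and 0.586 in d1 BC. The difference between the steps was called for 0 genes with the replicate block too. With the replicate block, 729 rises and 557 falls were called in the untreated comparison, and 9 and 21 against SM. A crossed pairing, chosen after seeing the data, gave 736 and 602 untreated and 947 and 570 with DOX. The uncalled difference of Nrp1, -1.30, was 1.26 with slide fixed. Median differences of the lists of collagens, fibroblast feeder, VEGF, myeloid, hematopoietic surface, integrin, chemokine, immediate early, sterol, CDK inhibitor and glycolysis genes changed sign under at least 1 scaling or background correction.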

Other observations

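Outside the lists, calls were counted for 16 gene families by name stem after the values had been seen. Of them, 2 are given here as a description and not as a test, and the Wnt stem is given above. Of 6 tested GTPase genes of the immunity-associated Gimap family, 4 were called higher in HE1 and 0 lower, with a median difference of 5.54. Over all genes 2.32% were called higher, but that share is no yardstick for a family chosen after its values were seen. Gimap5, Gimap6 and Gimap8 entered the test only because they were well above background on both HE1 arrays. Gimap1 differed by 5.68, Gimap8 by 6.33 and Gimap6 by 7.30, the last pair well above background on 1 of the d1 BC arrays, and Gimap5 was at least 22.2-fold higher. Gimap4 and Gimap9 differed by 2.53 and 2.11 and were not called. Of 13 tested fibroblast growth factor genes, 4 were called lower and 0 higher, with a median difference of -0.51. The share called lower over all genes, 1.73%, is no yardstick here for the same reason. Fgf5 fell by 4.95, Fgf3 by 3.26, Fgf18 by 2.56 and Fgf10 by 2.42, where Fgf5 and Fgf3 were well above background on 1 HE1 array. Fgf1, Fgf23 and Fgf7 had positive differences of 3.32, 2.17 and 1.83 and were not called.

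Among single genes chosen after their values were seen, Ldb2, a cofactor of LIM-domain factors, read -4.08 and -3.89 in d1 BC and 2.25 and 1.43 in HE1 (difference 5.83, adjusted p = 5.39e-06 by limma). Igf1, insulin-like growth factor 1, read -3.76 and -2.89 against 2.63 and 2.68 (difference 5.98, adjusted p = 0.000765 by limma).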
